A study of Mus musculus with 19 samples.

Results

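The genes described here are 10 transcripts that stand downstream of the MAPK cascade: the phosphatase genes Dusp4, Dusp5 and Dusp6, the Sprouty genes Spry1, Spry2 and Spry4, the Spred genes Spred1 and Spred2, and the ETS factor genes Etv4 and Etv5. They were taken by name, and all 10 were found among the 34807 genes of the count table and passed the filter on low counts. The table covered 19 mouse libraries, 1 from each of 15 skin tumours labelled as squamous cell carcinoma and 4 samples of normal skin. The tumours were of genotype Ivl:BRAFV600E (6 tumours), K5:BRAFV600E (5 tumours) or K14:BRAFV600E (4 tumours), and the normal skin was WT, from control littermates. In the tumour models a tamoxifen-dependent Cre recombinase switched on the mutant kinase BRAFV600E. The Ivl promoter drove Cre in committed basal and suprabasal cells, and the Krt5 (K5) or Krt14 (K14) promoter drove it in the basal layer that holds the stem cells. All mice were female per the labels and kept on a C57BL/6J background, and induction was at 7 to 20 weeks of age. Tamoxifen was painted on the skin of Ivl mice and 4-hydroxytamoxifen on that of K5 and K14 mice, and tumours were collected at the clinical endpoint. Ivl tumours arose late and at several body sites, K5 and K14 tumours early and on the back, so that origin, agent, latency and site cannot be told apart. The question addressed is how far the transcripts that report and restrain MAPK signalling were raised in tumours of each origin against normal skin, and whether origins differed.

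All 10 are protein-coding genes, and the authors counted reads per gene. On GRCm38 the phosphatase genes lie as follows: Dusp4 (ENSMUSG00000031530) at chr8:34807297-34819894, plus strand, Dusp5 (ENSMUSG00000034765) at chr19:53529109-53542431, plus strand and Dusp6 (ENSMUSG00000019960) at chr10:99263231-99267489, plus strand. The Sprouty genes are Spry1 (ENSMUSG00000037211) at chr3:37639947-37644598, plus strand, Spry2 (ENSMUSG00000022114) at chr14:105891947-105896819, minus strand and Spry4 (ENSMUSG00000024427) at chr18:38586247-38601415, minus strand. The Spred genes are Spred1 (ENSMUSG00000027351) at chr2:117121374-117182279, plus strand and Spred2 (ENSMUSG00000045671) at chr11:19924375-20024026, plus strand, and the ETS genes are Etv4 (ENSMUSG00000017724) at chr11:101769742-101785371, minus strand and Etv5 (ENSMUSG00000013089) at chr16:22381309-22439719, minus strand.

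BRAFV600E signals without an upstream signal and keeps the kinases MEK and ERK active. ERK activity in turn raises a set of transcripts whose products restrain the same pathway. Dusp6 and Dusp4 encode phosphatases that remove the activating phosphates from ERK, Dusp5 encodes a nuclear one, and the Sprouty and Spred proteins act on the pathway above RAF, at the level of receptors and RAS. Etv4 and Etv5 encode ETS transcription factors of the PEA3 group, which are raised by ERK signalling when the repressor CIC is removed. Because these transcripts follow ERK activity, they are commonly read as a measure of it. Here they are RNA levels of whole tissue, and ERK activity itself was not measured in these libraries. From tissue staining of pERK and DUSP6 protein the paper reports similar MAPK activation in the Ivl model and the stem-cell models.

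The start of 3 of the genes is shown, as RefSeq gives it on GRCm38.p6: those of Dusp5 and Dusp6, the members that rose most in K5 tumours, and that of Spry2, the member whose promoter held a searched motif. The windows lie at chr19:53528895-53529108 on the plus strand for Dusp5, at chr10:99262981-99263230 on the plus strand for Dusp6 and at chr14:105896820-105897069 on the minus strand for Spry2. Capitals mark a CIC motif. Only bases before the annotated gene are printed, which left 214 bases for Dusp5 and 250 for the others.
Dusp5: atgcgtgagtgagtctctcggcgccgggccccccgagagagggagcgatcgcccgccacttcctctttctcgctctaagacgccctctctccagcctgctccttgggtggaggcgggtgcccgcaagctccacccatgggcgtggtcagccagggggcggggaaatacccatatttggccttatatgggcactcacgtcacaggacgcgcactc
Dusp6: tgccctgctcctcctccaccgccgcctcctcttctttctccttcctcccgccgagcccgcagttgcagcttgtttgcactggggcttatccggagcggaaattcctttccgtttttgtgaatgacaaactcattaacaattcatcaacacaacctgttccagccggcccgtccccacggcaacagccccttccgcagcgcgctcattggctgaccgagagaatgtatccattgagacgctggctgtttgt
Spry2: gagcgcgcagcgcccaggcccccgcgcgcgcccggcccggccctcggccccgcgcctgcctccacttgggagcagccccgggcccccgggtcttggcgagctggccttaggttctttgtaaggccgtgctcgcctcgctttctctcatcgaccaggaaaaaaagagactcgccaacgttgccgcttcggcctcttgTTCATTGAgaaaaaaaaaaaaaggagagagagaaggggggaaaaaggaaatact
RefSeq promoters, from 250 bases before to 50 after each start, were held for 7 of the 10 genes, with 8 windows in all. They were searched on both strands for CCGGAAGT (ETS), TGANTCA (AP-1) and TGAATGAA or TCAATGAA (CIC). Of these 7 genes, 1 held a CIC motif (Spry2, as TTCATTGA on the printed strand, its first base 54 bases before the start, overlapping no other match), 0 held the ETS motif and 0 the AP-1 motif. Of 27025 genes with promoters of the same length, 2.35% held a CIC motif in at least 1, 4.31% the ETS motif and 8.97% the AP-1 motif, and of the 32851 promoters themselves 2.03%, 3.89% and 7.81% did. The 250 bases before the start were between 56% and 71.2% G or C in these windows, against a median of 52.4% over all promoters. A match is a description of the letters and not of a factor's binding.

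Totals per library were between 45715309 and 72609771 counts, and the 10 genes had between 65 counts (Dusp4) and 17177 counts (Dusp6) in a library. Levels are given as CPM, counts scaled to a library of common size. The authors' adjustment for a sequencing batch left a trace. In 96.6% of 13954 genes the libraries Ivl 1, Ivl 2, Ivl 3 and K5 1 had a mean CPM that differed from that of the remaining 15 by under 0.1 on the log2 scale, against 64.1% of genes for the next set of 4. These 4 are called the batch set below. For the 10 genes this difference was between -0.11 (Dusp5) and 0.10 (Dusp4) on the log2 scale. All 4 skin libraries are among the other 15, so the fits were repeated for those 15 libraries alone (3 Ivl, 4 K5, 4 K14 and 4 skin), and the counts of members called and the main values are given for them too. Markers of the labelled tissue were present in all 19 libraries. The summed level of 8 keratinocyte genes was 41000 to 106000 CPM in Ivl, 56200 to 86800 in K5, 64700 to 91100 in K14 tumours and 6140 to 12000 in skin, and 7 of 8 (Ivl) and 8 of 8 (K5 and K14 merged) rose. Of 4 neutrophil genes, 3 rose in both comparisons, and their sum was 6.18 to 49.9 CPM over the tumours and 0.866 to 13.1 in skin, where 1 of them was at 0 in all libraries. The sum of 5 skeletal muscle genes was 2070 to 6030 CPM in skin and 4.09 to 3620 in tumours, and 5 of 5 fell in K5 and K14 tumours merged. Of 36 genes in 7 further lists (fibroblast, endothelial, macrophage, T cell, adipocyte, melanocyte and hair follicle) 1 rose and 1 fell in Ivl tumours, and 1 rose and 8 fell in the merged ones. More of them fell in the 15 libraries. In Ivl tumours 4 of 5 melanocyte, 2 of 6 fibroblast and 2 of 5 adipocyte genes fell. So did 1 endothelial, 1 macrophage and 1 T cell gene, while 1 endothelial and 1 adipocyte gene rose. Of all genes 22.2% were higher there and 32.7% lower. In the merged tumours 5 of 5 melanocyte, 4 of 5 adipocyte, 3 of 5 macrophage and 2 of 4 T cell genes fell. So did 1 fibroblast, 1 endothelial and 1 hair follicle gene, and 1 endothelial gene rose. The part of these shifts in the results below was not tested, and in bulk tissue fewer cells of a type and less RNA per cell cannot be told apart. Braf itself stood at 24.1 to 84.1 CPM in tumours and 57.7 to 122 in skin, and these counts do not separate the mutant allele from the normal one.

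Against normal skin the 10 genes did not move as 1 group. Dusp5, Etv4 and, in the K5 and K14 tumours, Dusp6 rose. Spry1 rose in K5 tumours, and Dusp4, Spry2, Spry4, Spred1, Spred2 and Etv5 did not pass the test in any tumour group. In the comparison of Ivl tumours with skin 2 of 10 genes rose and 0 fell. In all 32031 genes tested 35.9% passed at an adjusted p under 0.05, 20.4% being higher and 15.5% lower. In K5 tumours 4 of 10 rose, where 55.7% of all genes passed (22.2% higher). In K14 tumours 3 of 10 rose, where 46.5% passed (20.6% higher). With K5 and K14 merged, as the study merged them, 4 of 10 rose, where 62.2% passed (23.2% higher). The 2 of 10 in Ivl tumours are close to the share of all genes that rose there, and nothing particular to the 10 genes is read from counts of this size. The median log2 fold change of the 10 was -0.04 in Ivl, 0.50 in K5 and -0.07 in K14 tumours, beside medians over all genes of -0.46, -0.64 and -0.56. These distances depend on the filter on low counts. With edgeR's filterByExpr the medians of the 10 were -0.18, 0.36 and -0.19, beside -0.32, -0.38 and -0.33 over all genes. These comparisons share the 4 skin libraries. The Ivl values against skin came from a fit with K5 and K14 merged, and the separate K5 and K14 values from a fit with 4 groups. Their SEs and calls are therefore not like for like. P-values are from the quasi-likelihood test of edgeR with Benjamini-Hochberg adjustment over all genes tested. No source states that the libraries of a group came from separate animals, so they measure the spread between these samples.

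**Figure D1:**
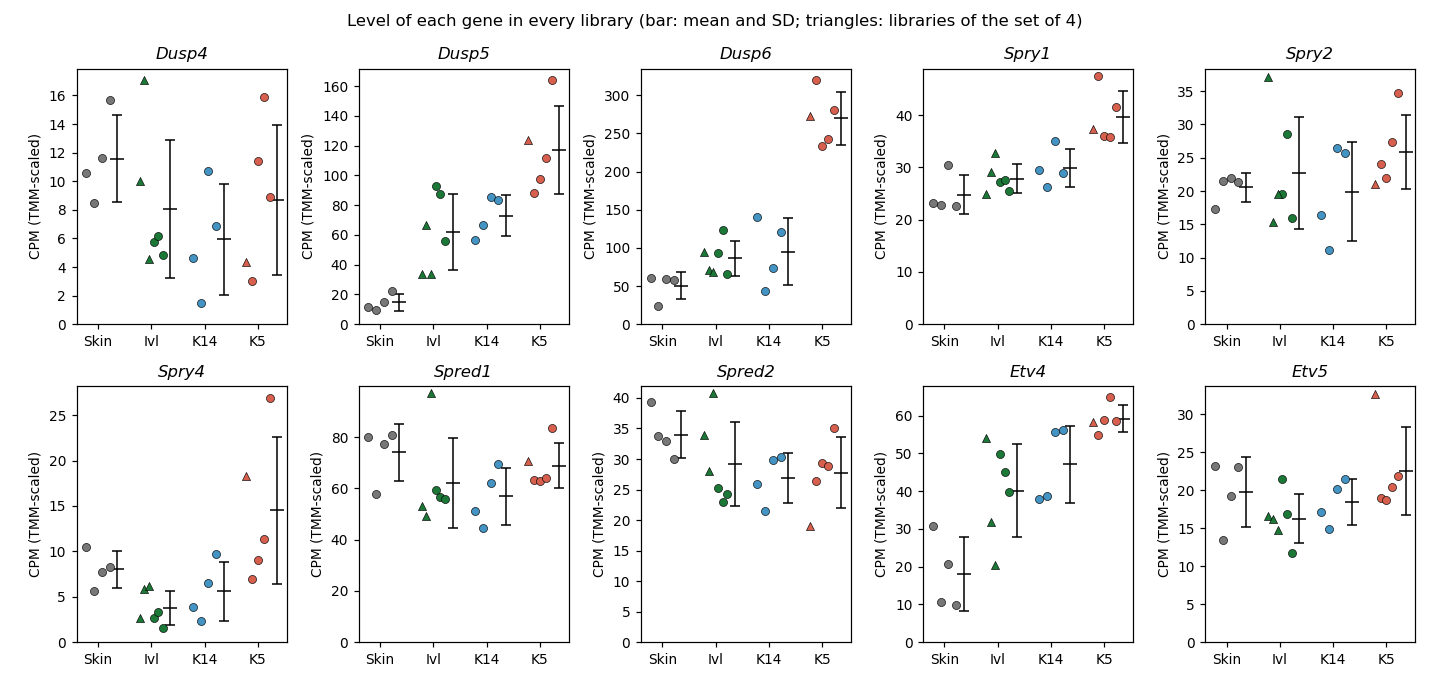
Level of each gene in every library in CPM (linear axes from 0), with the mean and SD of the group beside the points and triangles for the libraries Ivl 1, Ivl 2, Ivl 3 and K5 1. Dusp5 is higher in each tumour than in each skin library, and Dusp6 is at 233 to 320 CPM in the K5 tumours and at 43.9 to 140 in the other 10 tumours.

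Among the phosphatases Dusp5 rose in every tumour group. In skin it stood at 11.6, 9.64, 15.2 and 22.1 CPM. In Ivl tumours the lowest value was 33.6, the median 61.5 and the highest 92.7 CPM. The K14 tumours held 56.3, 66.8, 85.2 and 83.2 CPM and the K5 tumours 124, 88.0, 97.6, 112 and 164 CPM. All 15 tumours were above all 4 skin libraries, a pattern that 13.2% (Ivl), 19.7% (K14) and 19.3% (K5) of all genes showed. The log2 fold change against skin was 2.08 ± 0.35 (SE) in Ivl, 2.32 ± 0.33 in K14 and 3.0 ± 0.33 in K5 tumours, with adjusted p of 0.00012, 4.4e-05 and 3.6e-06. The 3 Ivl libraries of the batch set averaged 44.9 CPM and the other 3 averaged 78.8 CPM, and in the 15 libraries the log2 values were 2.43 (Ivl), 2.32 (K14) and 2.98 (K5), with adjusted p of 3e-05, 1e-05 and 9.2e-07. Dusp5 shares exonic bases with a gene on the opposite strand, and since no source says whether the counting used strand, its level is uncertain.

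Dusp6, the cytoplasmic ERK phosphatase, separated the K5 tumours from all other libraries. Skin held 60.2, 24.5, 59.8 and 58.0 CPM. The Ivl tumours ranged from 65.2 through a median of 82.2 to 124 CPM, so that all 6 were above all 4 skin libraries. Groups that do not overlap in that direction were found for 13.2% of all genes. The test did not pass for Ivl tumours, with a log2 fold change of 0.77 (95% interval -0.15 to 1.68, adjusted p = 0.16), nor in the 15 libraries (0.89, adjusted p = 0.18). That test used the fit with K5 and K14 merged, where the SE was 0.44, against 0.31 for K14 tumours in the fit with 4 groups. The difference in call between Ivl and K14 tumours is thus not one of like tests. The K14 tumours held 140, 43.9, 73.9 and 121 CPM and overlapped the skin. Their log2 fold change was 0.90 ± 0.31 (adjusted p = 0.027), and the call was lost without K14 1 (0.56, adjusted p = 0.15), without K14 4 (0.76, adjusted p = 0.081) or without skin 2 (0.67, adjusted p = 0.076). It passed in the 15 libraries (0.90, adjusted p = 0.041). The K5 tumours held 273, 320, 233, 242 and 280 CPM, a log2 fold change against skin of 2.41 ± 0.32 (adjusted p = 1.2e-05), and 2.41 (adjusted p = 9.2e-05) in the 15 libraries. With K5 and K14 merged the value was 1.92 ± 0.44 (adjusted p = 0.0014). Outside the batch set the merged group had 4 of 10 genes higher than skin, where 66.2% of all genes passed (23.9% higher).

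Dusp4, which encodes a nuclear phosphatase of ERK and related kinases, was the low member of the 3. It stood at 10.6, 8.46, 11.6 and 15.7 CPM in skin, at 4.55 to 17.1 (median 5.96) in Ivl, at 4.64, 1.5, 10.7 and 6.89 in K14 and at 4.35, 3.01, 11.4, 15.9 and 8.90 in K5 tumours. All 3 tumour groups overlapped the skin and each other. The log2 fold changes against skin were -0.52 (adjusted p = 0.39) in Ivl, -0.97 (adjusted p = 0.15) in K14 and -0.41 (adjusted p = 0.5) in K5 tumours. The intervals were wide, from -1.56 to 0.52 in Ivl tumours for example. Without the batch set the Ivl value was -1.05 (adjusted p = 0.13).

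**Figure D2:**
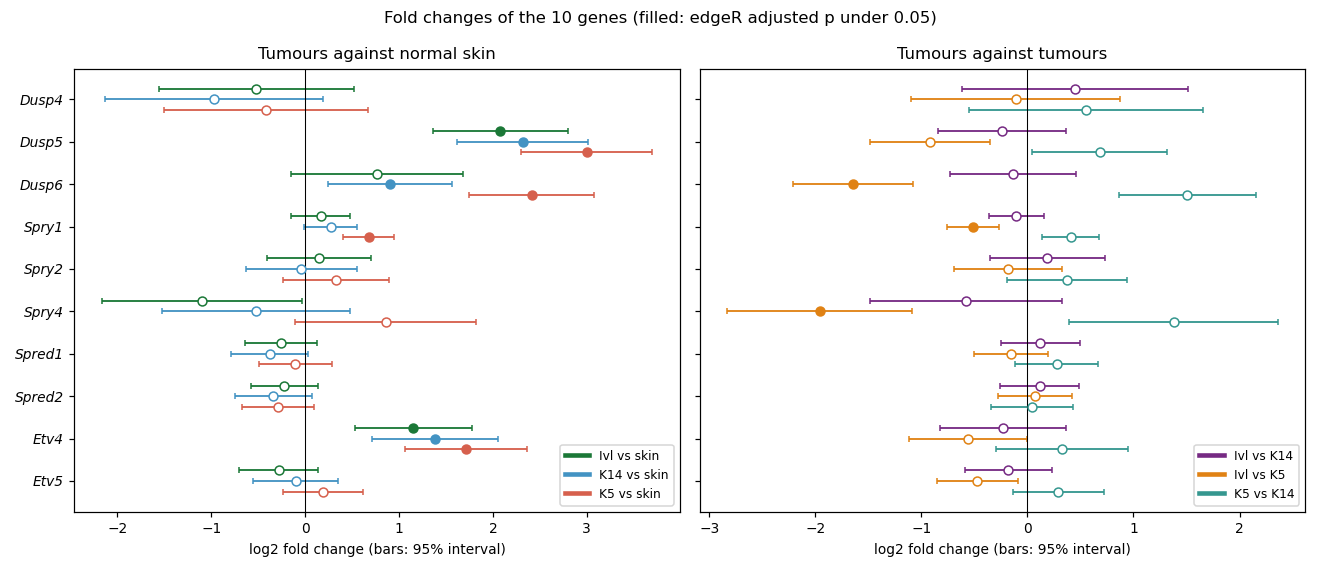
Log2 fold change of each gene against skin (left) and between tumour groups (right), with 95% intervals, filled where the edgeR adjusted p was under 0.05. The Ivl against skin values are from the fit with K5 and K14 merged, the others from the fit with 4 groups. Dusp5 and Etv4 are filled in all 3 comparisons with skin, and Dusp6, Spry1 and Spry4 are filled for Ivl against K5, with values of -1.64, -0.51 and -1.96.

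The Sprouty genes encode adaptors that restrain signalling from receptor tyrosine kinases. Spry1 was between 22.7 and 30.5 CPM in skin (23.2, 22.9, 30.5 and 22.7) and at 37.4, 47.6, 36, 35.9 and 41.6 CPM in K5 tumours, with no overlap, which held for 19.3% of all genes. Its log2 fold change there was 0.68 ± 0.13 (adjusted p = 0.00042) and 0.70 (adjusted p = 0.00038) in the 15 libraries. With K5 and K14 merged it was 0.51 ± 0.14 (adjusted p = 0.0049). In Ivl tumours (24.9 to 32.7, median 27.5 CPM) the log2 fold change was 0.17 (adjusted p = 0.36). In K14 tumours (29.6, 26.2, 35.0 and 29.0 CPM) it was 0.27 (adjusted p = 0.1), and without skin 3 it passed (0.38, adjusted p = 0.039). A gene on the opposite strand overlaps the exons of Spry1, so its level carries the same uncertainty as that of Dusp5.

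Spry4 was low throughout. Skin held 10.5, 5.63, 7.71 and 8.23 CPM, and the Ivl tumours 1.56 to 6.23 (median 3.04). K14 tumours held 3.92, 2.28, 6.47 and 9.69 CPM and K5 tumours 18.3, 6.94, 9.08, 11.4 and 26.9. The K5 values lay above all Ivl values, and every tumour group overlapped the skin. The log2 fold change against skin was -1.10 (95% interval -2.16 to -0.04, adjusted p = 0.092) in Ivl, -0.52 (adjusted p = 0.37) in K14 and 0.86 (adjusted p = 0.12) in K5 tumours. Within the 15 libraries the 3 Ivl tumours left averaged 2.53 CPM, and the fall against skin passed there (-1.66, adjusted p = 0.037). It also passed with DESeq2 (-1.23, adjusted p = 0.048) and with the batch set as a covariate (-1.66, adjusted p = 0.019). Those 15 libraries gave 4 members past the test for Ivl tumours, 2 higher and 2 lower, where 54.9% of all genes passed (22.2% higher and 32.7% lower).

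Spry2 did not pass against skin in any tumour group. It was at 17.3, 21.5, 22 and 21.4 CPM in skin, at 15.4 to 37.1 (median 19.6) in Ivl, at 16.4, 11.2, 26.4 and 25.7 in K14 and at 21, 24.1, 21.9, 27.4 and 34.7 in K5 tumours. The log2 fold changes against skin were 0.15 (adjusted p = 0.66), -0.04 (adjusted p = 0.91) and 0.33 (adjusted p = 0.29). The 95% interval for K5 tumours ran from -0.23 to 0.89.

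The Spred genes encode membrane proteins that bring neurofibromin, which switches RAS off, to the membrane. Both were at or below the skin level on average in every tumour group and neither passed the edgeR test in the 19 libraries. Spred1 was at 80.3, 57.7, 77.3 and 81.0 CPM in skin, 49.2 to 97.2 (median 56.3) in Ivl, 51.4, 44.6, 62.3 and 69.6 in K14 and 70.9, 63.3, 62.9, 64.0 and 83.6 in K5 tumours. The highest Ivl value belonged to Ivl 3, and without that library Spred1 was lower in Ivl tumours (-0.45, adjusted p = 0.015) and in K14 tumours (-0.38, adjusted p = 0.03). Spred2 was at 39.3, 33.7, 33.0 and 30.0 CPM in skin, 23.0 to 40.8 (median 26.6) in Ivl, 25.9, 21.5, 29.8 and 30.4 in K14 and 19.1, 26.4, 29.3, 28.9 and 35.1 in K5 tumours. Outside the batch set Spred2 was lower in Ivl (-0.49, adjusted p = 0.0088) and K14 tumours (-0.34, adjusted p = 0.035), and Spred1 in K14 tumours (-0.38, adjusted p = 0.043). In all 19 libraries Spred1 was lower in K14 tumours with DESeq2, with its size factors and with edgeR's filterByExpr (-0.50 to -0.49, adjusted p 0.038 to 0.042). Under the same settings Spred2 was lower in the merged tumours (-0.45 to -0.42, adjusted p 0.017 to 0.026), and with filterByExpr also in K5 tumours (-0.44, adjusted p = 0.042). Outside the batch set 5 members passed for K14 tumours, 3 higher and 2 lower, where 54.5% of all genes passed (21.9% higher and 32.6% lower). Among K5 tumours outside the set 4 of 10 rose and 0 fell, where 61.2% passed (22.8% higher).

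Of the ETS factors Etv4 rose and Etv5 did not. Etv4 stood at 30.9, 10.6, 20.8 and 9.87 CPM in skin and at 20.4 to 54.0 (median 42.5) in Ivl tumours. It stood at 37.8, 38.6, 55.7 and 56.3 CPM in K14 and 58.3, 55.0, 58.8, 64.9 and 58.7 CPM in K5 tumours. All K5 and K14 tumours were above all skin libraries, as for 16.7% of all genes, and Ivl 3 at 20.4 CPM was below the highest of them. The log2 fold change was 1.15 ± 0.30 (adjusted p = 0.0054) in Ivl, 1.38 ± 0.32 (adjusted p = 0.0025) in K14 and 1.71 ± 0.31 (adjusted p = 0.00025) in K5 tumours, and within the 15 libraries the values were 1.31, 1.38 and 1.72 (adjusted p = 0.0029, 0.0015 and 0.00027). Etv5 stood at 23.2, 13.5, 19.2 and 23.1 CPM in skin, 11.7 to 21.5 (median 16.4) in Ivl, 17.1, 14.9, 20.2 and 21.5 in K14 and 32.6, 19, 18.7, 20.4 and 21.8 in K5 tumours. Its log2 fold changes of -0.28 (adjusted p = 0.25), -0.10 (adjusted p = 0.71) and 0.19 (adjusted p = 0.43) lay within the spread of the libraries.

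Levels of different genes are compared per kilobase of exon. On that scale (CPM per kb) Dusp6 was the highest of the 10 in skin at 16.2 ± 5.57 (SD, n = 4), followed by Spred1 at 10.9 ± 1.62 and Spry2 at 9.84 ± 1.04, and these neighbours differed by less than the spread. Spry4 was the lowest at 1.69 ± 0.42. In K5 tumours (n = 5) the order was led by Dusp6 at 86.0 ± 11.1, Dusp5 at 47.3 ± 12 and Etv4 at 19.1 ± 1.16, each apart from the next by more than the spread. In Ivl tumours (n = 6) Dusp6 at 27.5 ± 7.18 and Dusp5 at 25 ± 10.3 overlapped. In K14 tumours (n = 4) they stood at 30.2 ± 14.0 and 29.5 ± 5.57 and overlapped as well. Dusp5 thus went from a level near that of Etv4 in skin (5.92 ± 2.21 and 5.82 ± 3.2) to 1 of the highest 2 in each tumour group.

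Between tumour groups the contrast that passed for members was that of Ivl with K5. There Dusp6, Spry1 and Spry4 were lower in Ivl tumours, 3 of 10 genes, where 1.47% of all genes passed and 0.702% were lower. Dusp6 had a mean of 86.2 ± 22.5 CPM (SD, n = 6) in Ivl and 269 ± 34.6 CPM (SD, n = 5) in K5 tumours, a log2 difference of -1.64 ± 0.27 (SE; edgeR adjusted p = 0.0068). Spry4 had 3.73 ± 1.89 and 14.5 ± 8.12 CPM, a log2 difference of -1.96 ± 0.42 (edgeR adjusted p = 0.027). Spry1 had 27.8 ± 2.83 and 39.7 ± 4.99 CPM, a log2 difference of -0.51 ± 0.12 (edgeR adjusted p = 0.034). For these 3 and for Etv4 every Ivl value was below every K5 value, which held for 1.71% of all genes in that direction, while Etv4 did not pass (-0.56, adjusted p = 0.22). Dusp5 did not pass either (-0.92, adjusted p = 0.079).

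The 4 libraries of the batch set all belong to these 2 groups. With the set as a covariate the same 3 members passed (Dusp6 -1.60, adjusted p = 0.0096, Spry4 -2.27, adjusted p = 0.012, and Spry1 -0.52, adjusted p = 0.044). Over all genes 520 passed in that fit, 197 being higher and 323 lower in Ivl tumours. With 3 Ivl and 4 K5 tumours left, 0 of 10 passed, where 0.347% of all genes did. The differences there were -1.51 for Dusp6 (adjusted p = 0.13), -2.42 for Spry4 (adjusted p = 0.073) and -0.59 for Spry1 (adjusted p = 0.092), as large as or close to those in all libraries. Spry1 lost its call without any 1 of the 5 K5 tumours, without Ivl 1 or without Ivl 6 (-0.55 to -0.44, adjusted p 0.054 to 0.079), and Spry4 without K5 1 (-1.86, adjusted p = 0.082), K5 5 (-1.61, adjusted p = 0.072) or Ivl 6 (-1.80, adjusted p = 0.054). The Dusp6 call held without each library in turn, with values of -1.78 to -1.58. Among cell type markers the keratinocyte gene Ivl, a late differentiation gene, was the 1 of 8 that was lower in this contrast, and 0 of 45 genes in the 9 lists for other cell types passed. The median log2 difference of these lists was 7.87 for hair follicle, 4.18 for skeletal muscle, 1.14 for adipocyte, 0.88 for T cell, -0.16 for macrophage, -0.72 for endothelial, -0.87 for neutrophil, -1.19 for fibroblast and -1.86 for melanocyte genes, so several were larger than the member differences. In the 15 libraries the adipocyte median turned to -1.41. The others there were 6.62 for hair follicle, 1.49 for skeletal muscle, 0.515 for T cell and -0.489 for macrophage genes. They were -1.015 for endothelial, -0.89 for neutrophil, -1.79 for fibroblast and -0.589 for melanocyte genes. The summed hair follicle genes were at 28.5 to 2490 CPM in Ivl and 88.7 to 184 in K5 tumours, and the muscle genes at 4.09 to 3620 and 6.98 to 135 CPM. The part of these shifts in the member differences was not tested.

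When Ivl tumours were set against K5 and K14 tumours merged, 0 of 10 genes passed, where 2.36% of all genes did. The largest differences were -1.5 for Spry4 (adjusted p = 0.073) and -1.15 for Dusp6 (adjusted p = 0.087). Merged, Dusp6 stood at 192 ± 99 CPM (SD, n = 9), with 269 ± 34.6 in K5 and 94.7 ± 43.7 in K14 tumours. Without K14 2, which held the lowest Dusp6 of all tumours, both passed (Spry4 -1.63, adjusted p = 0.045, and Dusp6 -1.29, adjusted p = 0.04), and without K14 1 Spry4 did (-1.60, adjusted p = 0.044). Over all genes 374 were higher and 195 lower in Ivl tumours without K14 2. Without K14 1 there were 1074 higher and 254 lower. In the 15 libraries 0 of 10 passed (0.41% of all genes), with -1.92 for Spry4 (adjusted p = 0.2) and -0.95 for Dusp6 (adjusted p = 0.55). Against K14 tumours alone 0 of 10 genes passed the edgeR test, as did 0% of all genes, while 3061 genes had an unadjusted p under 0.05 and DESeq2 called 226 genes (0.971%), 0 of them members. The difference for Dusp6 was -0.14 with a 95% interval from -0.73 to 0.46. In the 15 libraries 0 of 10 passed, where 0.231% of all genes did.

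K5 and K14 tumours carry the same oncogene in the same layer, and with edgeR 0 of 10 members and 0% of all genes passed between them. At an unadjusted p under 0.05 there were 1945 genes, and DESeq2 called 173 genes (0.857%), of which 1 was a member, Dusp6 (1.52, adjusted p = 0.00053). In the edgeR fit Dusp6 was higher in K5 by 1.51 ± 0.31 on the log2 scale (95% interval 0.86 to 2.15, adjusted p = 0.5). The smallest adjusted p of any gene was 0.247. Dusp5, Dusp6 and Spry1 were higher in all 5 K5 than in all 4 K14 tumours, 3 of 10 genes, where 2.04% of all genes were. Their unadjusted p were 0.037, 1e-04 and 0.0054 in that fit across all genes, and their log2 differences 0.68, 1.51 and 0.41. All 10 genes had a log2 difference above 0, from 0.05 (Spred2) to 1.51, with a median of 0.39 against 0 over all genes. The sign of Spred2 turned without K14 2 (-0.05) or without K5 5 (-0.05). In the 15 libraries 0 of 10 passed, where 0.0532% of all genes did, and Dusp6 differed by 1.5 (adjusted p = 0.18).

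The other genes of the pathway were described from 4 lists. Of all genes 20.4% were higher and 15.5% lower in Ivl tumours than in skin. In K5 tumours 55.7% passed (22.2% higher), and in K14 tumours 46.5% (20.6% higher). Of 12 other transcripts known to respond to ERK, 8 rose and 0 fell in Ivl tumours, with a median log2 fold change of 1.22. In K5 tumours 10 rose and 0 fell (median 1.97), and in K14 tumours 8 rose and 0 fell (median 1.09). Hbegf, an EGF receptor ligand, had means of 14.8 CPM in skin, 135 in Ivl, 155 in K14 and 308 in K5 tumours. Ier3, an early response gene, had 24.4, 104, 118 and 235 CPM, and Myc, which drives growth, 37.0, 76.8, 79.5 and 82.7 CPM. All 3 passed against skin in each tumour group, with edgeR adjusted p between 1.5e-06 and 0.00012. Against K5 tumours 2 of the 12 were lower in Ivl tumours, where 0.702% of all genes were. These were Ier3 by a log2 difference of -1.18 (adjusted p = 0.022) and Fos, an AP-1 subunit, by -2.08 (adjusted p = 0.038). Without the batch set 0 of the 12 passed in that contrast, with -0.74 for Ier3 and -2.24 for Fos (adjusted p = 0.21 for both). Against skin 8 (Ivl), 9 (K5) and 8 (K14) of the 12 rose and 0 fell in the 15 libraries, with Hbegf at 3.71, 4.32 and 3.38 on the log2 scale. Of all genes 22.2%, 22.8% and 21.9% were higher there.

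Of 7 other MAPK phosphatase genes 2 rose in Ivl tumours and 1 fell, where 20.4% of all genes were higher and 15.5% lower. In K5 tumours 3 rose and 2 fell, where 55.7% of all genes passed (22.2% higher). Nothing particular to the list is read from counts of this size. Dusp7, a cytoplasmic ERK phosphatase like Dusp6, went from a mean of 101 CPM in skin to 309 in Ivl (log2 1.61 ± 0.23, adjusted p = 3.2e-05) and 379 in K14 tumours (1.91 ± 0.24, adjusted p = 2e-05), and its log2 fold change in K5 tumours was 2.29 ± 0.23 (adjusted p = 2.3e-06). Dusp9, of the same subgroup, went from 1.6 CPM to 5.55, 7.93 and 11.7 CPM. Dusp8, whose product acts on JNK and p38, fell by 0.72 (adjusted p = 0.047), by 1.32 (adjusted p = 0.0032) and by 1.19 (adjusted p = 0.0029) on the log2 scale. Outside the batch set the fall of Dusp8 in Ivl tumours was -1.14 (adjusted p = 0.00085), and Dusp7 rose by 1.92, 2.25 and 1.91 in Ivl, K5 and K14 tumours. Over all 19 libraries Dusp5, Dusp6, Dusp7 and Dusp9 thus had their highest mean in K5 tumours. Dusp1 had means of 66.9 CPM in skin, 77.6 in Ivl and 107 in K5 and K14 tumours merged. In the 15 libraries its log2 fold change against skin was 1.32 in K5 tumours (edgeR adjusted p = 0.013). It was 0.03 in Ivl (adjusted p = 0.98) and -0.36 in K14 tumours (adjusted p = 0.45). Dusp4 and Dusp8 did not peak in K5 tumours. Dusp4 had its highest mean in skin (11.6 CPM, against 8.71 CPM in K5 tumours), and Dusp8 was lower than skin in each tumour group.

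Of 8 other inhibitors at the level of receptors and RAS, 1 rose and 3 fell in Ivl tumours, 3 rose and 2 fell in K5 tumours, and 2 rose and 4 fell in K14 tumours. In the same order 35.9%, 55.7% and 46.5% of all genes passed, and 20.4%, 22.2% and 20.6% were higher. Nothing particular to the list is read from these counts. Spred3 rose where Spred1 and Spred2 did not, from a mean of 3.41 CPM in skin to 13.1 in Ivl (log2 1.94 ± 0.48, adjusted p = 0.004), 24.3 in K14 (2.83 ± 0.53, adjusted p = 0.00046) and 31.0 in K5 tumours (3.19 ± 0.52, adjusted p = 0.00011). Its values in the 15 libraries were 2.31, 2.84 and 3.05. Nf1, which encodes the neurofibromin that Spred proteins recruit, fell in Ivl tumours (-1.58 ± 0.39, adjusted p = 0.0039), in K14 (-1.64 ± 0.42, adjusted p = 0.005) and in K5 tumours (-0.93 ± 0.38, adjusted p = 0.047). Its K5 value in the 15 libraries was -1.58 (adjusted p = 1.3e-06). Errfi1, an inhibitor of the EGF receptor, rose in K5 (1.96 ± 0.28, adjusted p = 2.8e-05) and K14 tumours (0.77 ± 0.28, adjusted p = 0.035) and was lower in Ivl than in K5 tumours (-1.17 ± 0.24, adjusted p = 0.026). Outside the batch set that difference was -1.04 (adjusted p = 0.21).

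Of 12 other ETS factors and repressors of their targets, 3 rose and 2 fell in Ivl tumours, 3 rose and 4 fell in K5, and 3 rose and 3 fell in K14 tumours. The shares of all genes that were higher were 20.4%, 22.2% and 20.6% in that order, of 35.9%, 55.7% and 46.5% that passed. Nothing particular to the list is read from these counts. Elk3, an ETS factor that ERK phosphorylates, went from a mean of 25.2 CPM in skin to 70.6 in Ivl, 91.9 in K14 and 94.4 in K5 tumours, with log2 fold changes of 1.48, 1.87 and 1.90, and 1.69, 1.87 and 1.91 in the 15 libraries. Erf, an ETS repressor that ERK keeps out of the nucleus, rose by 0.76, 0.81 and 0.92 on that scale. Ets2, also an ERK substrate, rose by 0.54 in Ivl, 0.66 in K14 and 0.61 in K5 tumours (adjusted p = 0.0027, 0.0014 and 0.0012). Among the genes that fell in the 15 libraries were Etv1 and Elk4. Etv1 changed by -2.46 in Ivl, -2.34 in K14 and -2.05 in K5 tumours (edgeR adjusted p = 0.00017, 0.00014 and 0.00033). Elk4 changed by -1.43, -1.42 and -1.61 (edgeR adjusted p = 7.4e-08, 2.8e-08 and 7e-09). In all 19 libraries the lowest value of the list was -1.19 in Ivl, -2.34 in K14 and -2.21 in K5 tumours, so the Ivl falls depend on the batch set. Etv3, an ETS repressor, was the 1 of these genes that differed between Ivl and merged K5 and K14 tumours (0.45, adjusted p = 0.029), and in the 15 libraries it did not pass (0.38, adjusted p = 0.15).

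**Figure D3:**
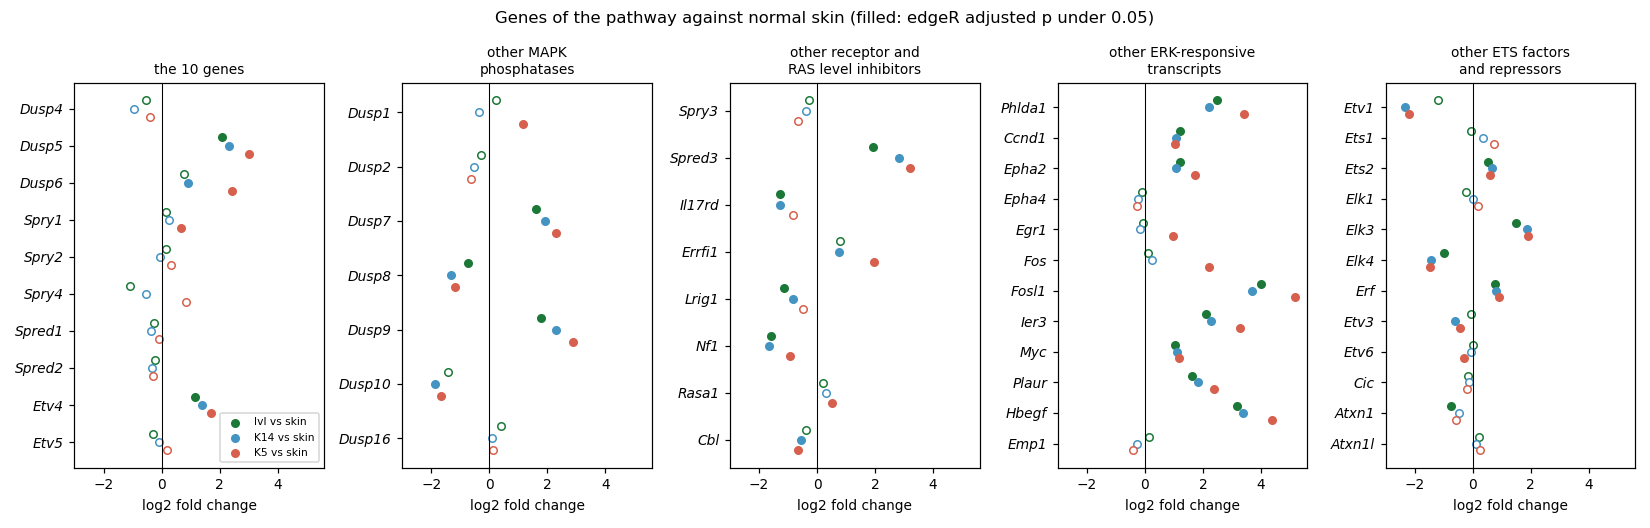
Log2 fold change against skin of the 10 genes and of 4 lists of other pathway genes, in Ivl, K14 and K5 tumours, filled where the edgeR adjusted p was under 0.05. In the list of 12 other ERK-responsive transcripts the filled points (8, 8 and 10) are all to the right of 0, and the other lists have filled points on both sides.

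How the 10 genes went together over tumours was described by Pearson's r of log2 CPM for their 45 pairs. These points share libraries, depth and the batch adjustment. Over all 15 tumours the median r was 0.44, from -0.32 (Dusp5 with Spred2) to 0.78 (Dusp6 with Spry1), with 19 pairs over 0.5 and 5 below 0. Over the 11 tumours outside the batch set it was 0.71, from 0.30 to 0.90, with 42 pairs over 0.5 and 0 below 0. With the mean of each tumour group taken out, the medians were 0.25 and 0.63. A member and any of 11453 other genes, with group means left in, had a median r of 0.05 over 15 and 0.07 over 11 tumours. Of such pairs 11.4% and 16.8% were over 0.5. No such value was computed with group means taken out. Of the 11 tumours K14 2 held the lowest Dusp4, Dusp6, Spry2, Spred1 and Spred2. K5 5 held the highest Dusp5, Spry2, Spry4, Spred1 and Spred2. The part of single libraries in these r was not tested. Spred2, with an r of -0.03 with Dusp6 over 15 tumours, had 0.61 over the 11.

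**Figure D4:**
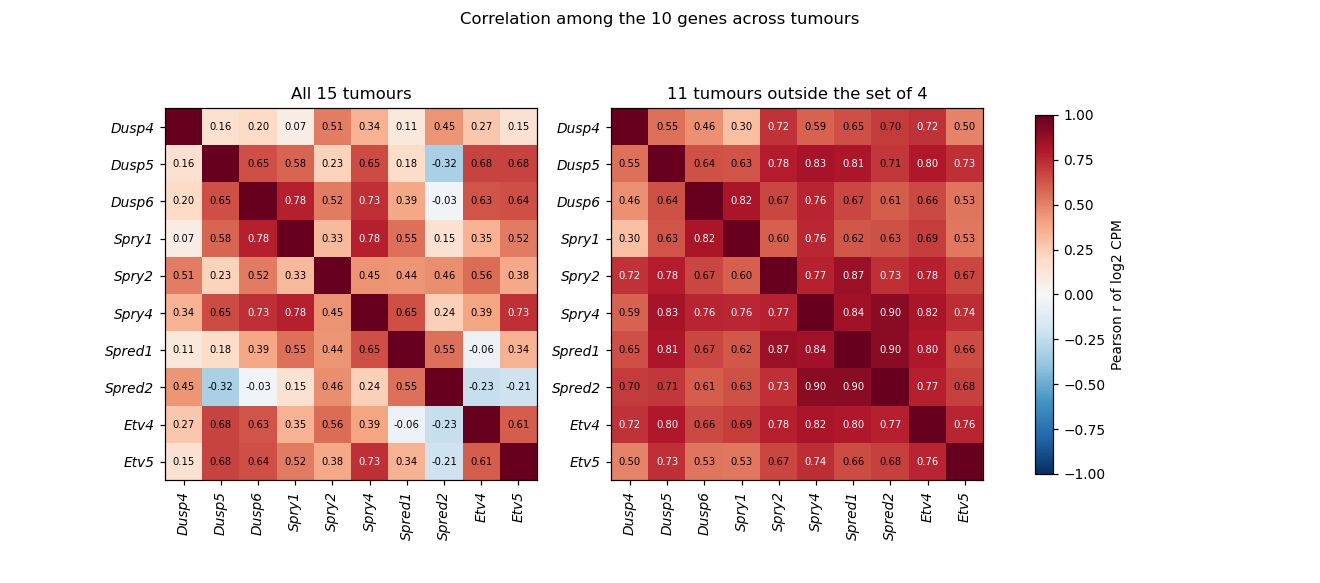
Pearson's r of log2 CPM for each pair of the 10 genes over all 15 tumours (left) and the 11 outside the batch set (right), on a colour scale from -1 to 1. All pairs on the right are above 0, and on the left the 5 pairs below 0 include Dusp5 with Spred2.

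Over the 15 tumours the genes most like Dusp6, among 11462 with a mean of at least 5 CPM, were Rab20 (r = 0.93), Ccm2 (0.90), Nectin2 (0.89), Oaf (0.89) and St3gal2 (0.89). Rab20 encodes a small GTPase, Ccm2 a scaffold protein, Nectin2 a cell adhesion protein and St3gal2 a sialyltransferase. Over the 11 tumours their r was 0.93, 0.89, 0.87, 0.91 and 0.86. Of the members Spry1 came first (r = 0.78, place 83), then Spry4 (0.73, place 183), Dusp5 (0.65, place 445), Etv5 (0.64, place 464) and Etv4 (0.63, place 556). Dusp4 (0.20) and Spred2 (-0.03) were far down the order.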

How the data were processed

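RNA from 15 mouse tumours and 4 normal skin samples was sequenced as strand-specific poly(A) libraries. According to the labels and the study's methods the authors checked reads with FastQC 0.11.8, trimmed them with Trim Galore, aligned them with HISAT2 2.1.0 to GRCm38, counted them per gene with featureCounts of Subread 1.6.3 and ran ComBat-seq on the table to remove a sequencing batch. The deposited values are therefore estimated counts (whole numbers, not scaled for depth). Plain counts had been assumed in the design, and the same test was kept. Adjustment without a group term can move group differences, and which library was in which batch is not given in the sources used here. Nor is it given whether a group term was used, and this was not tested. The batch set holds only tumours, yet its means matched those of 15 libraries that include the 4 skin samples. For Dusp5 the mean was 64.6 CPM in the set and 69.8 in the other 15, with 89.9 in the tumours outside the set and 14.6 in skin. The batch set holds Ivl 1, Ivl 2 and Ivl 3, so the Ivl values over all 19 libraries depend on this adjustment. Their mean was 44.9 CPM for Dusp5 and 4.94 CPM for Spry4, against 78.8 and 2.53 CPM in the other Ivl tumours. Every set of 4 libraries (3876) was scanned for a mean equal to that of the rest, over genes with a mean above 2 CPM. Whether strand was used in counting is not given in the sources used here.

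Groups came from the sample titles. Of 34807 gene identifiers 34694 matched GENCODE M21 on GRCm38 and 113 did not. Genes reaching 5 counts in 1 or more libraries were tested (32031, with 2776 dropped), scaled by TMM and tested with the quasi-likelihood test of edgeR 4.0.16 (limma 3.58.1, R 4.3.3), in 1 fit with K5 and K14 merged and in 1 with 4 groups, at an adjusted p under 0.05. The merged fit gave the contrasts of Ivl tumours with skin, of merged tumours with skin and of Ivl with merged tumours. All others came from the fit with 4 groups. Log2 CPM used a prior count of 2. The SE is the fold change over the root of F. Within groups 37 pairs of libraries were compared, and the smallest chi-square per degree of freedom was 25.9, so no library was counted as a repeat. The scripts were tested on simulated data. Alternatives were DESeq2 1.42.0, its size factors, other filters, leaving out libraries, the batch set as a covariate and the replicate number as a block. The members and lists were chosen with earlier results of these data known. The 10 members were always named, with up to 3 genes of smallest adjusted p per list and comparison and the 5 genes most like Dusp6. Etv1 and Elk4 were named besides, as genes that fell, and Dusp1 for its rise in K5 tumours.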

Additional observations from a re-analysis of the deposited data

Results flagged for a closer look

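In 6 of 40 groups of 4 to 6 libraries tested over the 10 genes, 1 library lay far from the others by Dixon's test, which chance alone gives in about 1 of 20 groups. In skin these were Dusp6 in skin 2 (24.5 CPM, below the others), Spry1 in skin 3 (30.5 CPM, above), Spry2 in skin 1 (17.3 CPM, below) and Spred1 in skin 2 (57.7 CPM, below). In tumours they were Spred1 in Ivl 3 (97.2 CPM, above) and Etv5 in K5 1 (32.6 CPM, above), and both of these belong to the batch set. Ivl and K5 tumours, both set against the same skin, differed by the edgeR test of the difference for Dusp6 (-1.64), Spry1 (-0.51) and Spry4 (-1.96 on the log2 scale), with all 6 Ivl below all 5 K5 values for each of the 3. In the 15 libraries outside the batch set 0 of these 3 passed.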

How the results depend on the processing

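Of 2080 recomputed values of single members, 1994 kept their direction and side of the threshold, 18 lost and 24 gained a call, and 44 changed sign, all 44 of them values that had not passed. The numbers of members called were within the leave-one-out ranges of 2 to 3 (Ivl against skin), 4 to 4 (merged and K5), 2 to 4 (K14), 0 to 2 (Ivl against merged K5 and K14), 1 to 3 (Ivl against K5) and 0 to 0 (K5 against K14 and Ivl against K14). They became 4 for Ivl against skin, 5 for K14 against skin and 0 for Ivl against K5 in the 15 libraries outside the batch set. With DESeq2 they became 2 for Ivl against merged tumours and 1 for K5 against K14, and with the batch set as a covariate 1 for Ivl against merged tumours (Spry4, -1.91, adjusted p = 0.044). Against skin 1 member also became lower with DESeq2 (Ivl, merged, K14), its size factors (merged, K14), filterByExpr (merged, K5, K14) and the covariate (Ivl). With DESeq2 Dusp5 was also lower in Ivl than in K5 tumours (-0.93, adjusted p = 0.02). The median r among members was 0.706 in the 11 tumours. The cause of these shifts was not tested.

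Replicate numbers did not pair the samples: of 25 same-number pairs 10 correlated over 0.1 (-0.395 to 0.47), and 4 of 19 libraries correlated best with their own number. With the replicate number as a block 1 member was called for Ivl against K5, Spry1 (-0.49, adjusted p = 0.1) and Spry4 (-1.63, adjusted p = 0.13) being lost, Spry2 became 0.011 (Ivl against merged) and Dusp4 0.25 (Ivl against K5), and it changed no other call.

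Signs also turned, with no call, for Spry2 (Ivl against skin: -1e-04 with filterByExpr) and Etv5 (merged against skin: -0.0444 with DESeq2 size factors, -0.044 with DESeq2, -0.0636 with filterByExpr, -0.0395 in the 15 libraries). In the 15 libraries Dusp4 (-0.49) and Spred2 (-0.24) turned for Ivl against merged, Spred2 (-0.31) for Ivl against K5, and Dusp4 (-0.083), Dusp5 (0.11) and Spred2 (-0.16) for Ivl against K14. With the covariate Dusp4 was -0.10 for Ivl against merged. Leave-one-out ranges that crossed 0 were, against skin, -0.0505 to 0.24 (Spry2, Ivl), -0.0813 to 0.16 (Etv5, merged) and -0.21 to 0.15 (Spry2, K14). For Ivl against merged they were -0.25 to 0.33 (Dusp4), -0.23 to 0.0615 (Spry2), -0.22 to 0.0206 (Spred1) and -0.0321 to 0.15 (Spred2), and for K5 against K14 -0.0528 to 0.15 (Spred2). For Ivl against K5 they were -0.47 to 0.23 (Dusp4) and -0.049 to 0.17 (Spred2), and for Ivl against K14 -0.0083 to 0.35 (Spry2), -0.0668 to 0.23 (Spred1), -0.0107 to 0.18 (Spred2) and -0.37 to 0.12 (Dusp6).

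Over all genes, calls for Ivl against skin went from 11515 to 17566 in the 15 libraries, and the split from 6535 higher and 4980 lower to 5712 and 6828 with DESeq2 size factors, which moved the median of all genes from -0.46 to -0.59. For Ivl against merged tumours 756 became 2133 (DESeq2), 131 (15 libraries), 449 (covariate) and 46 (block), and 127 to 1328 leaving out libraries. For Ivl against K5 470 became 3206, 111, 520 (covariate), 105 (block) and 747 (filterByExpr), and 96 to 734 leaving out libraries. The 0 calls became 173 (DESeq2) and 17 (15 libraries) for K5 against K14, and 226, 74 and 57 (covariate) for Ivl against K14. The lowest member counts in a library were 65 (Dusp4) and 81 (Spry4), and whether depth limited a call was not tested.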
